A study of Mus musculus with 4 samples.

Results

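Bnc1 and Bnc2, the 2 mouse genes for basonuclins, were followed through maps of open chromatin from the fat progenitors of 2 depots. They were represented by fixed windows on genome build mm9: chromosome 7 from 89050000 to 89220000 for Bnc1 (170 kb) and chromosome 4 from 83850000 to 84400000 for Bnc2 (550 kb). Every peak overlapping a window was taken. This gave 81 of the 198854 peaks in the 4 lists, which merged at an overlap of at least 1 bp into 6 regions for Bnc1 and 27 for Bnc2, together 33 of 83319 regions. The cells were adipose progenitors, the mesenchymal precursors of fat cells, taken fresh and untreated from C57BL/6 mice aged 16 weeks. Visceral progenitors gave the libraries VAT 1 and VAT 2, and subcutaneous progenitors gave SAT 1 and SAT 2. Accessibility was measured by ATAC-seq, in which a transposase inserts sequencing adapters into open DNA. Sex and pooling of the mice are not in the labels, and neither is whether the libraries of a depot had different donors, so their spread may be purely technical.

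Basonuclins are nuclear zinc finger proteins. Bnc1 is known from the basal layer of stratified epithelia, from germ cells and from mesothelium, the epithelial sheet over the visceral fat and organs. Bnc2 is known mainly from mesenchymal cells and fibroblasts, and mice without it have defects of the craniofacial skeleton. Open chromatin in or near a gene marks promoters and other regulatory DNA, but a peak alone does not give the gene that it acts on.

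The windows differ in how much of them the gene fills. In the RefSeq annotation of assembly GRCm38, Bnc1 spans 25.6 kb, which is 15.1% of the window's length, and its nearest protein-coding neighbours are Hdgfl3 and Sh3gl3. Bnc2 spans 409 kb, or 74.4% of the length of its window, and lies between Ccdc171 and Cntln. No mm9 annotation was used, so no region could be assigned to a promoter, exon or intron, and a region of either window may belong to a neighbour. For the same reason the label of the cells was not checked against marker genes.

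The sequences at 1 listed start of each gene are shown because they are of opposite base composition. The RefSeq sequences of GRCm38 run from 250 bases before to 50 after a listed start, both on the minus strand, at chr7:81992250-81992549 for Bnc1 and chr4:84610148-84610447 for Bnc2. These positions are not comparable with the mm9 positions of the peaks, so no peak could be placed on the sequences. Capitals mark the GC box GGGCGG or its reverse complement CCGCCC, read on both strands.
Bnc1: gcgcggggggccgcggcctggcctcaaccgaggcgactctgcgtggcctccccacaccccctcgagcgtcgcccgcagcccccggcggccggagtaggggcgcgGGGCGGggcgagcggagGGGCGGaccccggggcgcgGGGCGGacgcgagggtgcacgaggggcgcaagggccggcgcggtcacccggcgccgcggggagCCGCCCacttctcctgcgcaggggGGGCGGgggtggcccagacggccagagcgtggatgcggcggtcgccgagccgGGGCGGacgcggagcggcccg
Bnc2: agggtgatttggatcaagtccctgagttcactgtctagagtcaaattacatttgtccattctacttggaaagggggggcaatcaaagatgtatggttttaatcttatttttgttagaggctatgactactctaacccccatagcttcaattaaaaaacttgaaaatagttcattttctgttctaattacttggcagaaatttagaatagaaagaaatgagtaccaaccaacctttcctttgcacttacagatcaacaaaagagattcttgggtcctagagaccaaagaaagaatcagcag
The Bnc1 sequence is 83.3% G and C with 50 CpG dinucleotides, against medians of 52.7% and 7 over the sequences at 32841 listed RefSeq starts, here called promoters, of the same length. A G and C content at least as high was found in 0.292% of these promoters. Bnc1 has 6 GC boxes, a number reached by 1.35% of promoters, and 35.7% have at least 1. The Bnc2 sequence is 36.3% G and C and has 0 CpG and 0 GC boxes. The TATA box TATAAA and the CCAAT box CCAAT were also searched on both strands, are found in 13.6% and 37.4% of promoters, and have 0 matches in either sequence. RefSeq lists 20 transcripts of Bnc2 and 3 of Bnc1, so other starts exist, and which of them the progenitors use was not tested. The low G and C content is therefore that of 1 listed Bnc2 start and may not hold for its other starts. The 250 bases before this start end in cttacag, as the end of an intron can. The sequence may thus not be a promoter of Bnc2, which was not tested.

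The lists were of unequal length. VAT 1 held 56907 peaks, VAT 2 62279, SAT 1 56823 and SAT 2 22845, and each list ended at a score of 20. Without read counts in the lists the depth is unknown, and a site with no peak may still be open. SAT 2 stood apart as the shortest list, and results are therefore given with and without it. The score is that of the authors' peak caller and was used as a percentile within its own list, 100 being the strongest peak. In these bulk libraries, a site open in fewer cells and a site less open in every cell cannot be told apart.

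Bnc1 had few peaks, and both visceral lists had more of them than both subcutaneous lists. The window held 5 peaks in VAT 1 and 4 in VAT 2, against 3 in SAT 1 and 2 in SAT 2. The means were 4.50 ± 0.71 peaks in visceral and 2.50 ± 0.71 in subcutaneous libraries (SD, n = 2 each), and the groups did not overlap. The covered length was 1330 bp in VAT 1 and 1593 bp in VAT 2, against 1124 bp in SAT 1 and 470 bp in SAT 2. Relative to the length of the lists the depots did overlap. There were 0.879 Bnc1 peaks per 10000 peaks of the list in VAT 1 and 0.642 in VAT 2, against 0.528 in SAT 1 and 0.875 in SAT 2. Both SAT 2 peaks, like 2 of the 5 in VAT 1, were pieces of 1 merged region. VAT 2 and SAT 1 each had 1 peak there, so the value of 0.875 counts that region 2 times. Counted as regions with a peak, the window had 4 in VAT 1 and 4 in VAT 2, against 3 in SAT 1 and 1 in SAT 2. The difference of visceral minus subcutaneous was 2 peaks (two-sided exact permutation test, p = 0.333, the smallest that 2 against 2 libraries allow) and 0.059 peaks per 10000 (same exact test, p = 0.667). With lists of equal length, the 22845 peaks of highest score in each, 2 peaks remained in VAT 1 and 1 in VAT 2, against 1 in SAT 1 and 2 in SAT 2, a difference of 0. All of these peaks lay in that same merged region.

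Bnc2 had many peaks, as many in SAT 1 as in VAT 1. The window held 22 peaks in VAT 1 and 17 in VAT 2, against 22 in SAT 1 and 6 in SAT 2. The means were 19.5 ± 3.5 in visceral and 14.0 ± 11.3 in subcutaneous libraries (SD, n = 2 each), a difference of 5.50 peaks that is smaller than the spread of the subcutaneous libraries (two-sided exact permutation test, p = 1). With lists of equal length it was 0.50 peaks (same exact test, p = 1), and without SAT 2 it turned to -2.50. Covered length was 5.69 kb in VAT 1 and 4.83 kb in VAT 2, against 4.90 kb in SAT 1 and 0.847 kb in SAT 2. Per 10000 peaks of the list the values were 3.87 in VAT 1 and 2.73 in VAT 2, against 3.87 in SAT 1 and 2.63 in SAT 2, so each depot had a high and a low library. The difference was 0.049 (same exact test, p = 1). In the top 50% of each list by score it was 1.33 (same exact test, p = 0.333, the smallest possible), and both visceral values then stood above both subcutaneous ones. Over the 8 depot differences tested, 4 measures in each window, the lowest adjusted p was 0.889 by the Benjamini-Hochberg method on exact permutation p-values.

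**Figure D1:**
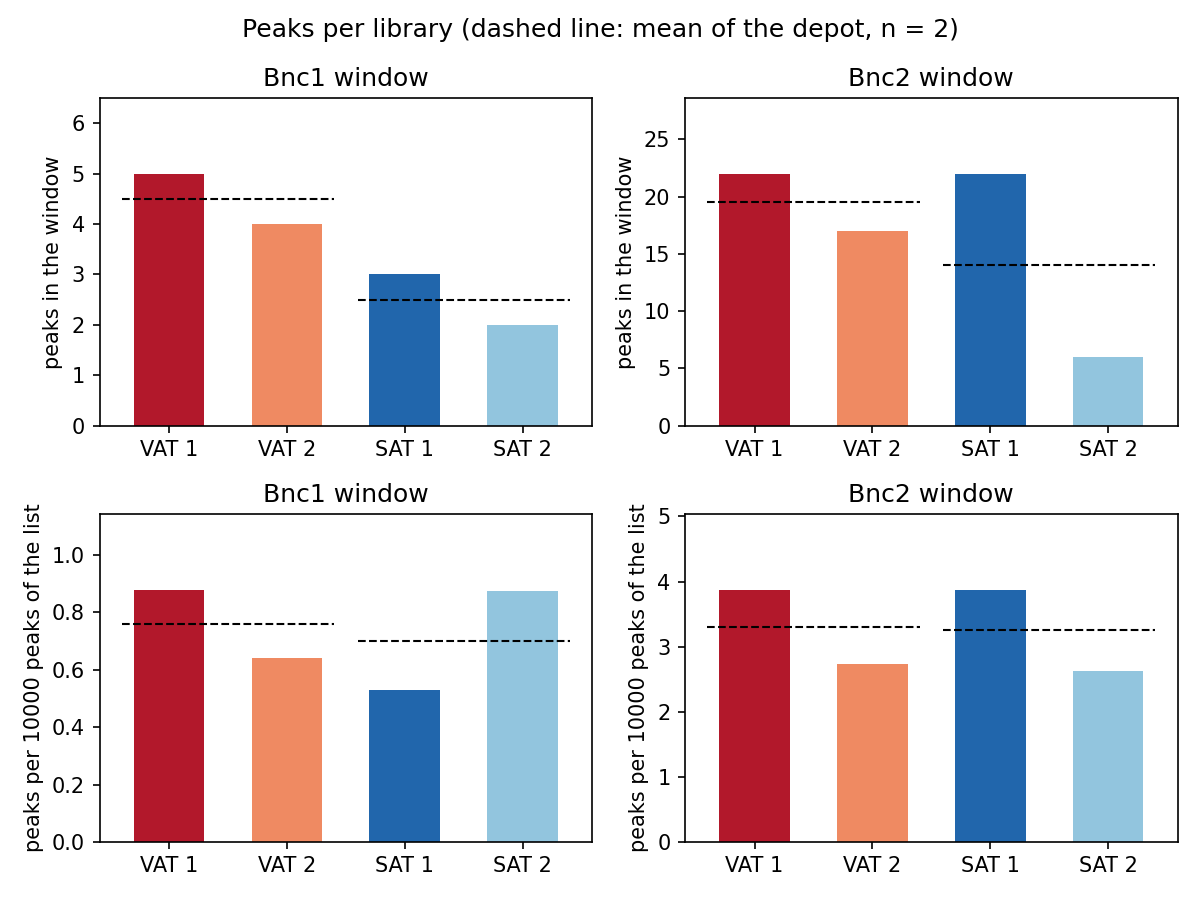
Number of peaks in the Bnc1 and Bnc2 windows (top) and the same per 10000 peaks of the list (bottom), one bar per library, with a dashed line at the mean of each depot (n = 2). The visceral Bnc1 bars of 5 and 4 peaks stand above the subcutaneous bars of 3 and 2, but per 10000 peaks SAT 2, at 0.875, is close to VAT 1, at 0.879. Both SAT 2 peaks are pieces of 1 merged region.

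Per length, the Bnc2 window was denser in peaks than the genome as a whole in every list, and the Bnc1 window lay closer to the genome's density in 3 of the 4. Bnc2 had 4.00 peaks per 100 kb in VAT 1, 3.09 in VAT 2, 4.00 in SAT 1 and 1.09 in SAT 2. Bnc1 had 2.94 in VAT 1, 2.35 in VAT 2, 1.76 in SAT 1 and 1.18 in SAT 2. The whole lists had 2.15 in VAT 1, 2.36 in VAT 2, 2.15 in SAT 1 and 0.865 in SAT 2, counted over each chromosome up to its last peak. By peaks, the order of the 2 genes was turned round in SAT 2 alone, where both Bnc1 peaks were pieces of 1 merged region. The turn rests on this split, since SAT 2 had a peak in 1 Bnc1 region and in 5 Bnc2 regions. Merged regions made up 1.09% of the Bnc1 window and 1.38% of the Bnc2 window.

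In the Bnc1 window, 1 of 6 regions had a peak in all 4 libraries (16.7%), against 23.2% of all merged regions. It was also the widest, at 1070 bp, and lay on chromosome 7 at 89078429 to 89079498. VAT 2 and SAT 1 each had 1 peak there, of 1070 bp and 869 bp. VAT 1 and SAT 2 had 2 peaks each, covering 903 bp and 470 bp. The best peak stood at the percentile of 79.8 in VAT 1 and 82.0 in VAT 2, against 79.7 in SAT 1 and 17.2 in SAT 2. VAT 1, VAT 2 and SAT 1 were thus within 2.3 percentile points, and SAT 2 alone was low. The region lies nearer to the lower end of the window, and whether it belongs to Bnc1 or to a neighbour was not tested.

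The other Bnc1 regions were narrow and ranked below the middle of their lists. These regions, and those described further on for Bnc2 that were not open in all libraries or restricted to a depot, were singled out after their values were seen. The region at 89137053 to 89137276 (224 bp) had a peak in every library but SAT 2. Its percentile was 15.2 in VAT 1 and 17.3 in VAT 2, against 1.53 in SAT 1, so both visceral peaks ranked above the subcutaneous one. The region at 89104737 to 89104858 had a peak in VAT 2 (percentile 39.3) and in SAT 1 (5.17) and none in VAT 1 or SAT 2. Another 3 regions had a peak in a single library: 89063390 to 89063520 and 89077634 to 89077744 in VAT 1 (percentiles 35.4 and 25.7), and 89201851 to 89202044 in VAT 2 (32.7). All 3 single-library regions of the window were thus visceral, as were 77.5% of the single-library regions of the genome. Regions with a peak in both visceral libraries and in neither subcutaneous one numbered 0 of 6 (against 4.60% of all merged regions), and the reverse class 0 of 6 (against 0.110%).

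**Figure D2:**
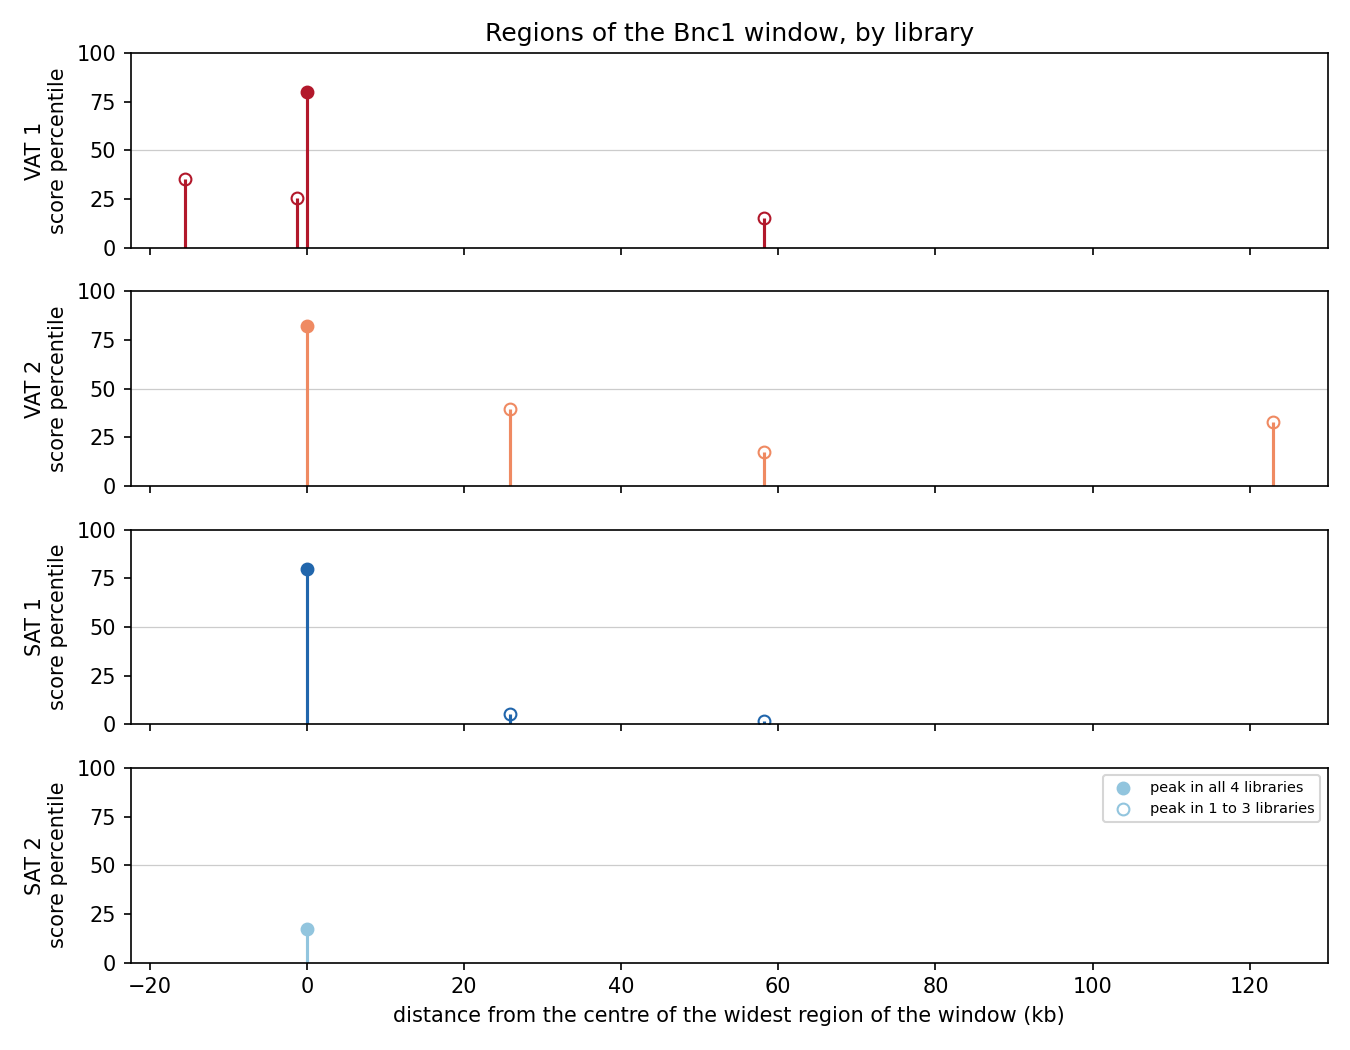
Score percentile (y axis, 0 to 100 within the list) of the best peak in each of the 6 regions of the Bnc1 window against distance from the centre of the widest region in kb, one panel per library. Filled points mark the region with a peak in all 4 libraries, which reaches 79.8 in VAT 1, 82.0 in VAT 2 and 79.7 in SAT 1 but 17.2 in SAT 2.

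The median percentile of the Bnc1 peaks was 35.4 in VAT 1 and 36.0 in VAT 2, against 5.17 in SAT 1 and 16.9 in SAT 2. The mean of these medians was 35.7 ± 0.4 in visceral and 11.1 ± 8.3 in subcutaneous libraries (SD, n = 2 each). The groups did not overlap, and the difference of 24.7 points was tested by two-sided exact permutation (p = 0.333, the smallest possible). These medians rest on 2 to 5 peaks a library. With lists of equal length the depots overlapped, and the difference was 9.15 points (same exact test, p = 0.667).

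In the Bnc2 window, 5 of 27 regions had a peak in all 4 libraries (18.5%), against 23.2% of all merged regions. A further 9 (33.3%) had a peak in every library but SAT 2, against 19.5% of all regions. The remaining ones had a peak in 2 libraries (5 regions) or in 1 (8 regions, or 29.6%, against 36.4% of all regions). VAT 1 had a peak in 22 of 27 regions (81.5%, against 66.0% of all merged regions) and VAT 2 in 17 (63.0%, against 73.4%). SAT 1 had one in 21 (77.8%, against 65.6%) and SAT 2 in 5 (18.5%, against 25.6%). Each of the 5 SAT 2 regions was also open in the 3 other libraries. Over the genome this held for 19350 of the 21340 regions with a SAT 2 peak.

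The region at 84053165 to 84053405 on chromosome 4 was the most even of the locus. It was 241 bp wide and had 1 peak per library, of 225 bp in VAT 1, 222 bp in VAT 2, 222 bp in SAT 1 and 193 bp in SAT 2. The peak centres lay within 17.5 bp of each other and 193 bp were common to all. Its percentile was 72.9 in VAT 1 and 73.4 in VAT 2, against 72.2 in SAT 1 and 78.3 in SAT 2. It was thus the one region of either window in which SAT 2 ranked highest, and the depots differed by -2.09 points in mean percentile.

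The 4 other regions open in all libraries had a low peak in SAT 2. At 84169466 to 84170086 (621 bp) the percentile was 83.4 in VAT 1 and 69.3 in VAT 2, against 60.7 in SAT 1 and 23.6 in SAT 2. At 84191089 to 84191643 (555 bp) it was 67.0 in VAT 1 and 74.9 in VAT 2, against 52.4 in SAT 1 and 11.3 in SAT 2. In both regions each visceral library ranked above each subcutaneous one.

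The widest region of the locus, at 84320631 to 84321288 (658 bp), had percentiles of 76.1 in VAT 1 and 60.4 in VAT 2, against 59.3 in SAT 1 and 16.6 in SAT 2. Its peaks differed more in width than in place, with 574 bp in VAT 1, 658 bp in VAT 2, 392 bp in SAT 1 and 185 bp in SAT 2 around centres that lay within 14.5 bp. The region at 84186446 to 84186843 (398 bp) held the highest percentile of the locus. It stood at 85.8 in VAT 1 and 64.7 in VAT 2, against 89.4 in SAT 1 and 19.2 in SAT 2. Here the depots overlapped, since SAT 1 was highest and SAT 2 lowest.

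Both visceral percentiles thus stood above both subcutaneous ones in 3 of the 5 common Bnc2 regions and in the 1 common Bnc1 region, against 32.7% of the 19350 common regions of the genome. The reverse order was seen in 0 of these 6 regions, against 2.99% of all common regions. Over the genome, common regions had a median percentile of 80.3 in VAT 1 and 83.5 in VAT 2, against 80.4 in SAT 1 and 55.6 in SAT 2. Without SAT 2, 14 of 27 Bnc2 regions (51.9%) were open in all 3 libraries left, against 42.8% of all regions. Both visceral percentiles were above SAT 1 in 8 of these 14 (57.1%), against 34.6% of such regions in the genome, and both were below it in 3 (21.4%), against 28.6%. For Bnc1, both visceral percentiles were above SAT 1 in 2 of 2 regions. In the widest region the margin was small, with 79.8 in VAT 1 and 82.0 in VAT 2, against 79.7 in SAT 1. The other region ranked low in each list, at 15.2 in VAT 1 and 17.3 in VAT 2, against 1.53 in SAT 1. With equal-length lists, 0 of 3 common Bnc2 regions and 1 of 1 common Bnc1 region had both visceral percentiles on top, against 15.8% of such regions in the genome.

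**Figure D3:**
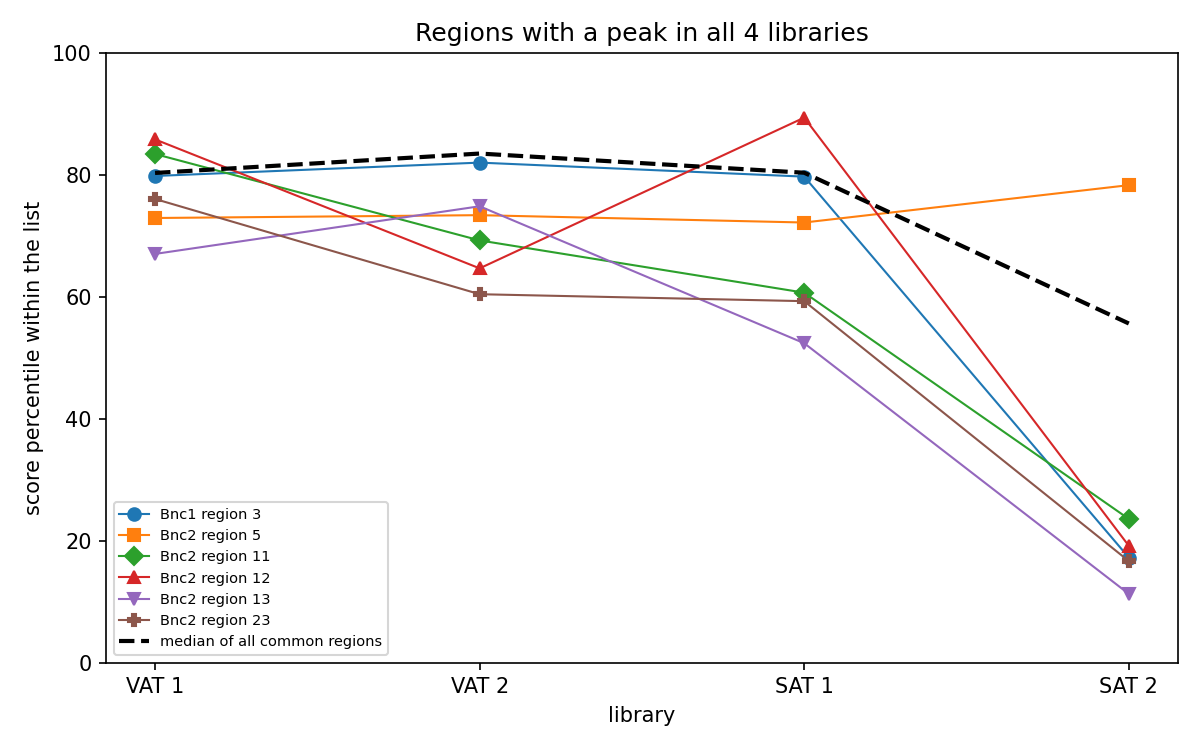
Score percentile within the list (y axis) in the 4 libraries (x axis) for the 6 regions of the Bnc1 and Bnc2 windows that have a peak in each, with the median of all 19350 common regions dashed. SAT 2 is the lowest library in 5 of the 6 lines, and Bnc2 region 5, at 72.2 to 78.3, is level (regions are numbered along each window). In the dashed median of the genome SAT 2 is the lowest too, at 55.6.

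One Bnc2 region was restricted to visceral progenitors, which is 3.70% of 27 and below the 4.60% of all merged regions. It lay at 84274243 to 84274456 (214 bp), with percentiles of 8.99 in VAT 1 and 37.0 in VAT 2. When peaks within 500 bp were merged it joined its neighbour at 84273580 to 84273922, which was open in SAT 1 too, and 0 restricted regions were left. Regions restricted to subcutaneous progenitors numbered 0 of 27, against 0.110% of all merged regions. Without SAT 2, 1 of 27 regions was open in both visceral libraries and not in SAT 1 (3.70%, against 5.09%), and 3 were open in SAT 1 alone (11.1%, against 7.99%).

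Of the 9 regions missing only from SAT 2, the strongest in its weakest library was that at 84331668 to 84332197 (530 bp). Its percentile was 84.1 in VAT 1 and 65.7 in VAT 2, against 67.9 in SAT 1. At 84167408 to 84167789 the visceral libraries differed more from each other, with 76.5 in VAT 1 and 22.2 in VAT 2, against 60.7 in SAT 1. At 84103527 to 84103745 the percentile was 67.6 in VAT 1 and 39.3 in VAT 2, against 10.9 in SAT 1, the widest gap between SAT 1 and both visceral peaks among these regions. At 84321530 to 84321896, next to the widest region, it was 18.4 in VAT 1 and 52.3 in VAT 2, against 68.2 in SAT 1, the opposite order. Regions of the locus therefore did not share one order of the depots.

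Peaks present in VAT 1 and SAT 1 alone made up 4 of 27 Bnc2 regions (14.8%), against 9.37% of all merged regions. The strongest of them lay near the ends of the window. At 83877138 to 83877570 the percentile was 71.4 in VAT 1 and 63.0 in SAT 1. At 84387096 to 84387534 it was 61.8 in VAT 1 and 76.9 in SAT 1. The other 2 regions ranked lower, between 17.9 and 41.4. Single-library Bnc2 regions numbered 3 in VAT 1, 2 in VAT 2 and 3 in SAT 1, were between 89 and 284 bp wide, and stood at percentiles of 1.53 to 50.5.

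**Figure D4:**
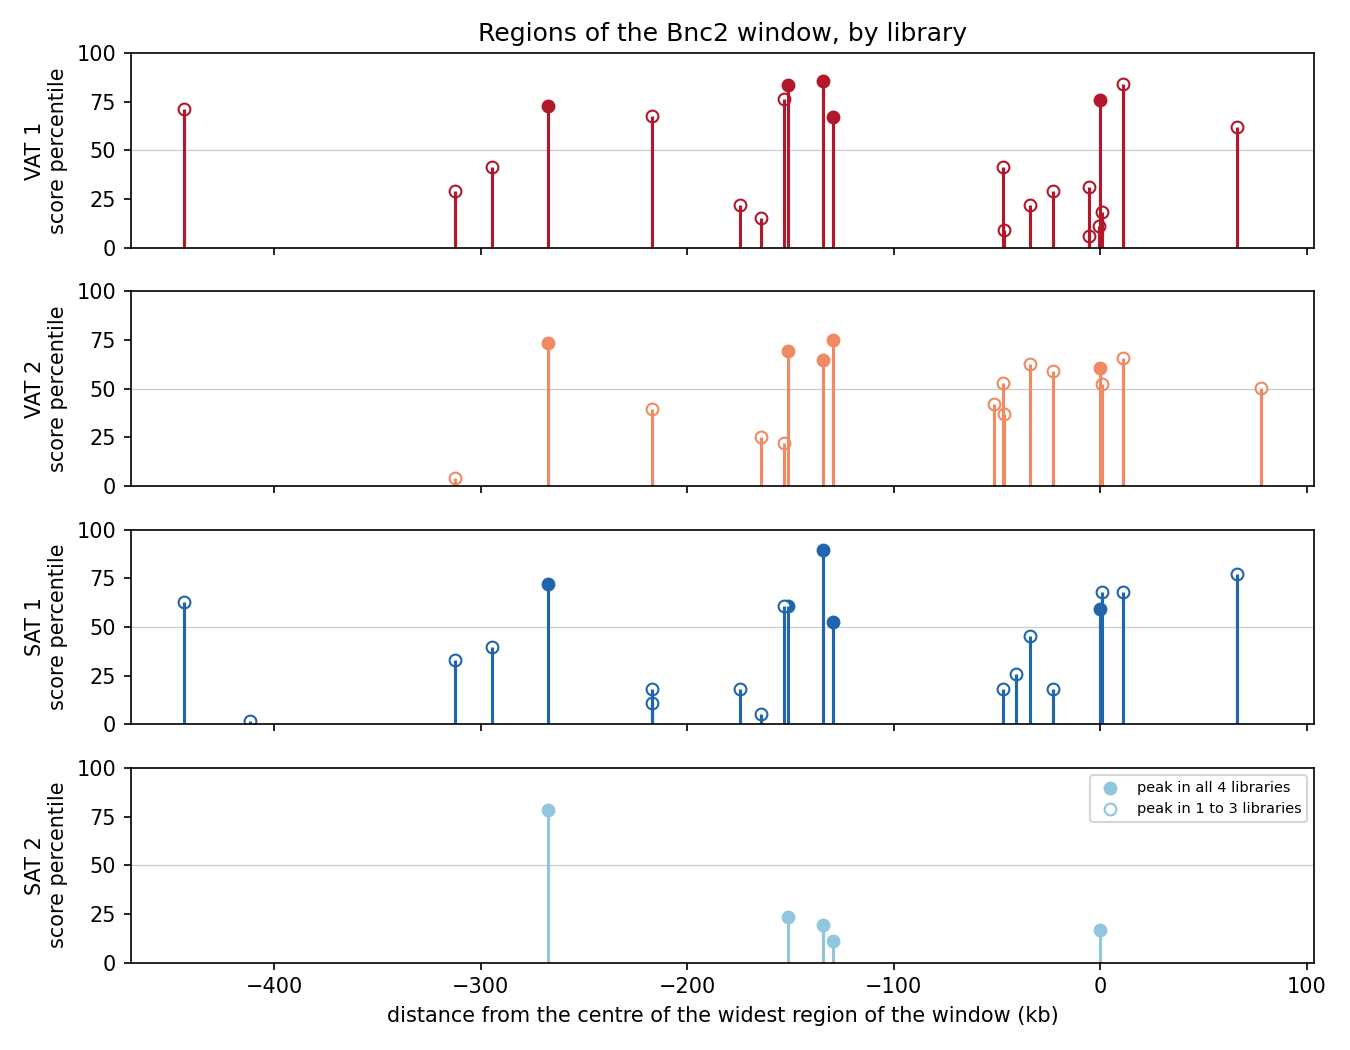
Score percentile (y axis, 0 to 100 within the list) of the best peak in each of the 27 regions of the Bnc2 window against distance from the centre of the widest region in kb, one panel per library. Filled points mark the 5 regions with a peak in all 4 libraries, and SAT 2 has peaks at these alone. Over the genome, 19350 of the 21340 regions with a SAT 2 peak were open in all 4 libraries.

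The median percentile of all Bnc2 peaks was 41.4 in VAT 1 and 52.8 in VAT 2, against 42.3 in SAT 1 and 17.9 in SAT 2. The mean was 47.1 ± 8.0 in visceral and 30.1 ± 17.3 in subcutaneous libraries (SD, n = 2 each), a difference of 16.9 points within the spread of the libraries (two-sided exact permutation test, p = 0.667). Without SAT 2 the difference was 4.73 points, and in the top 50% of each list it was -7.49.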

How the data were processed

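ATAC-seq peak lists of 2 visceral and 2 subcutaneous progenitor libraries were analysed, with depot and replicate number from the sample titles. Per the submitters' processing notes, the tools were Bowtie2 and MACS2 and the build mm9. Not given in the sources used here are versions, options, the treatment of duplicates, any shift of read ends and any repeat filter. Each library has 1 deposited list, whose column 5 is the score given by the authors' peak caller. Its scale is not given, so it was ranked within its list (ties share their mean rank) and never compared between lists as such.

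The windows, and the lists and measures, were chosen with earlier results of these data known. Peaks overlapping by at least 1 bp were merged, which gave the same 83319 regions as bedtools 2.31.1, and the code was tested on simulated data. A region's percentile in a library is that of its best peak. Depots were compared with two-sided exact permutation tests over 4 libraries, and counts were set beside the same share over all merged regions. Positions count from 1. Regions given in full were those restricted to a depot, those whose percentiles did not overlap between depots, the widest, and the strongest by their weakest library. Computations used Python 3.11.15, numpy 2.4.6, pandas 2.3.3 and scipy 1.17.1. Alternatives were equal-length lists, the top 50%, 50% reciprocal overlap, merging within 500 bp, 200 bp around each centre, leaving out each library, and a replicate block. The sequences at listed starts are from RefSeq (GRCm38.p6).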

Additional observations from a re-analysis of the deposited data

How the results depend on the processing

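No depot difference could pass a threshold, since 2 against 2 libraries allow no p below 0.333. With equal-length lists the Bnc1 difference was 0 in peaks, 0 per 10000 and 9.15 percentile points, the Bnc2 difference was 0.50 peaks, 0.219 per 10000, 1156 covered bases and 7.09 points, and for Bnc2 there were 3 regions open in all libraries, 0 restricted to visceral and 0 with both visceral percentiles on top. In the top 50% by score these Bnc2 counts were 1, 0 and 0, Bnc1 had 0 regions open in all and 0 with visceral on top, and the Bnc2 difference was -7.49 in median percentile but 1.33 peaks per 10000 and 2086 covered bases, with p = 0.333 for each of these last (exact permutation); no median difference could be had for Bnc1, since SAT 2 had no peak left. With 50% reciprocal overlap the counts were 1, 0 and 0 for Bnc2, and 0 open in all and 0 with visceral on top for Bnc1. Merging within 500 bp left 0 visceral-restricted Bnc2 regions, and 200 bp around each centre left 0 Bnc1 regions with visceral on top. In the main analysis, the 1 such Bnc1 region held 2 VAT 1 peaks, at percentiles of 67.0 and 79.8, against 79.7 in SAT 1. The cause of these changes was not tested. SAT-restricted counts were 0 in all of these settings.

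Leaving out each library gave, for Bnc1, differences of 1.5 to 2.5 peaks, -0.115 to 0.232 per 10000, 338 to 992 covered bases and 18.8 to 30.5 percentile points, with 1 to 2 regions open in all, 0 to 2 visceral-restricted, 0 to 0 SAT-restricted, and 1 to 2 with visceral on top. The negative values per 10000 were -0.059 without VAT 1 and -0.115 without SAT 1. For Bnc2 it gave -2.5 to 13.5 peaks, -0.574 to 0.671 per 10000, 363 to 4413 covered bases and 4.73 to 29.2 points, with 5 to 14 regions open in all, 1 to 10 visceral-restricted, 0 to 3 SAT-restricted, 3 to 8 with visceral on top and 0 to 3 with subcutaneous on top. Without VAT 1 the Bnc2 difference per 10000 was -0.519, and without SAT 2 it was -0.574 and that in peaks -2.5. The 10 visceral-restricted regions came without SAT 1, and the 14 open in all without SAT 2. Restricted counts rise by construction when 1 library stands for a depot.

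The replicate numbers are shared by the depots, but nothing in the labels says that they mark a litter or day. Over 19350 common regions the deviations of VAT 1 and SAT 1 from their depot means had a Pearson correlation of 0.152, and 2 pairs are too few to call the numbers a pairing. With a replicate block in the exact permutation test the differences are the same by construction, 2 peaks for Bnc1 (p = 0.5, the smallest possible) and 5.50 for Bnc2 (p = 1). No p could pass a threshold with or without the block, so the block is no check of the results.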

Other observations

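Regions of the Bnc2 window were also joined into runs. When regions with gaps of at most 20 kb were joined, a distance chosen after the values were seen, 6 regions formed a run of 45.1 kb at 84146552 to 84191643 and 12 regions a run of 63.0 kb at 84269222 to 84332197. The first held 6 peaks in VAT 1 and 5 in VAT 2, against 6 in SAT 1 and 4 in SAT 2, and 3 of the 5 regions open in all libraries. The second held 10 peaks in VAT 1 and 8 in VAT 2, against 8 in SAT 1 and 1 in SAT 2. SAT 2 thus had most of its Bnc2 peaks in the shorter run, where 2 of its 4 peaks were pieces of 1 region. The largest stretch without a region was 99025 bp long, toward the lower end of the window. The Bnc1 window had no run of more than 3 regions. Whether regions placed at random would form runs of these lengths was not tested.

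By covered bases, the Bnc2 peaks of VAT 1 and SAT 1 coincided most: 4133 bp were shared, which is 72.6% of VAT 1 and 84.4% of SAT 1. Over the whole lists these shares were 74.6% and 76.2%, also the most alike pair by Jaccard index (0.605). VAT 1 and VAT 2 shared 3457 bp, or 60.7% of VAT 1 and 71.6% of VAT 2, against 71.7% and 63.3% over the whole lists. VAT 2 and SAT 1 shared 3046 bp, or 63.1% of VAT 2 and 62.2% of SAT 1, against 63.2% and 73.0% over the whole lists. Nearly all bases under the SAT 2 peaks of the locus were covered in the other lists, 88.7% in VAT 1, 100% in VAT 2 and 99.9% in SAT 1, against 91.7%, 95.5% and 91.5% over the whole lists. For Bnc1 the most alike were VAT 2 and SAT 1, with 1107 bp shared, or 69.5% of VAT 2 and 98.5% of SAT 1. Their shares over the whole lists were the 63.2% and 73.0% given above. No test was made of these shares.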
